A study of Mus musculus with 24 samples.

Results

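The collagen genes encode the chains of the most abundant protein family of the extracellular matrix. Members were all probes, control spots aside, whose sequence identifier maps to a gene symbol of the form Col, a number, a and a second number, and each gene is represented by its brightest probe. This gave 44 genes with 70 probes, out of 23787 genes with a symbol on the array (34566 of 56605 probes have one). The genes are grouped by the structure that their proteins build, and 2 of them stand outside these classes.

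The animals were 48 male Swiss-Webster mice, 12 weeks of age by the study's methods. Mice were moved to single cages at about that age and left to habituate before treatment, so they were older at sampling. Treated mice drank corticosterone overnight, at 100 µg/ml with 0.45% hydroxypropyl-β-cyclodextrin as the carrier, and control mice drank the carrier alone. Hippocampi were collected during the first, the fifth or the ninth hour of the following light phase, which is the resting period of mice, from 8 mice of each treatment per hour, without pooling. By the study's methods, treated and control mice were siblings from several litters, and the files do not say which mouse came from which, so that the tests take the mice as independent. Each of 24 arrays on 3 slides held 1 control mouse in the Cy3 channel and 1 treated mouse in the Cy5 channel, and no array had the dyes the other way round. Within an hour, a constant difference between the dyes therefore cannot be told apart from an effect of corticosterone, and it cancels only in comparisons between hours. Slide 1 held 2, 2 and 4 arrays of the first, the fifth and the ninth hour, and slides 2 and 3 each held 3, 3 and 2. Per array, the scanner software marked 60.8 to 67.2% of Cy3 spots and 64 to 73.5% of Cy5 spots as well above background, and 0 as saturated. All 7 markers of hippocampal neurons were well above background on every array, with *Camk2a* the brightest.

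Collagen chains wind around each other in sets to form a rope-like helix. Fibrillar collagens then assemble into fibres, type IV collagens into the network of basement membranes, and other classes coat fibres, link them to cells or stay in the cell membrane. In the brain, collagen lies mostly in the meninges and in the walls of blood vessels, while a few members, among them *Col19a1* and *Col25a1*, are known as products of neurons. Glucocorticoids are known from skin for lowering the synthesis of fibrillar collagen.

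Signal intensity means the normalized intensity of a spot in arbitrary units, and levels are compared only between groups for the same probe. Over all 48 channels, 31 of the 44 genes had a mean signal intensity of 50 or more and 13 a lower one. The scanner software placed 30 genes well above background in all 48 channels, 8 in some of them and 6 in none. The 6 were *Col4a3*, *Col4a4*, *Col6a6*, *Col24a1*, *Col10a1* and *Col28a1*. Those seen in some channels were *Col6a2* (47 of 48), *Col6a5* (44), *Col27a1* (44), *Col14a1* (41), *Col9a1* (40), *Col2a1* (36), *Col8a2* (15) and *Col15a1* (3). The brightest probes of the family belonged to *Col16a1* (1030), *Col6a1* (905), *Col4a1* (730), *Col22a1* (612), *Col4a2* (573) and *Col1a2* (531), an order that also depends on how well each probe binds.

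The comparison of treated with control mice asks at which hours after the night the hormone's trace is seen. A gene was called where the limma test, fitted over all probes, gave an adjusted p under 0.05. During the first hour 8 of 44 collagen genes (18.2%) were called, against 17.5% of all probes, with 4 higher (8.79% of all probes) and 4 lower (8.74%) in treated mice. During the fifth hour 11 genes (25%) were called against 18.1% of all probes, 4 of them higher (8.64%) and 7 lower (9.51%). For the ninth hour the count was 7 genes (15.9%) against 13.9% of all probes, with 1 higher (6.97%) and 6 lower (6.93%). The family as a whole was not tested, and shares near those of all probes are not a result about collagen genes. An unadjusted p under 0.05 was found for 14, 16 and 16 of the 44 genes at the 3 hours, and for 31.1, 31.2 and 27.9% of all probes. The median log2 fold change of the family was -0.06, -0.05 and -0.09, beside 0 for all probes. For the 31 genes with an intensity of 50 or more it was -0.06, 0.02 and -0.08, with the other sign in the fifth hour. Among genes with an intensity of 50 or more, 7, 10 and 6 of 31 were called (22.6, 32.3 and 19.4%), and among the brightest probes of all named genes at that intensity 24.3, 23.7 and 16.3% were. In bulk tissue, fewer cells of a type and less RNA per cell cannot be told apart, and this applies to every level given here.

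Across the hours, 13 collagen genes were called at least once and 31 at none. *Col5a3*, *Col16a1*, *Col6a3* and *Col13a1* were called at all 3 hours. With fewer arrays some of the counts dropped: leaving out slide 2 left 4 genes called during the first hour, and leaving out slide 3 left 4 during the fifth. For the ninth hour, 2, 4 and 3 genes were called without slides 1, 2 and 3. Neither these counts nor those across the hours have a share of all probes beside them, so nothing about the family is read from them. The size of an effect in dimmer genes depended on the handling of background: with the offset of 50 that the p values carry also used for fold changes, *Col5a3* gave 0.53, 0.57 and 0.36, *Col6a3* gave -0.20, -0.29 and -0.29, *Col13a1* gave -0.12, -0.24 and -0.13, *Col6a4* gave 0.21 and 0.16 where it was called, and *Col3a1* gave -0.56 in the fifth. Of the called genes, *Col4a4* (first hour), *Col8a2* (the fifth hour) and *Col4a3* (ninth hour) had intensities under 50 and are taken up with the dim members.

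**Figure D1:**
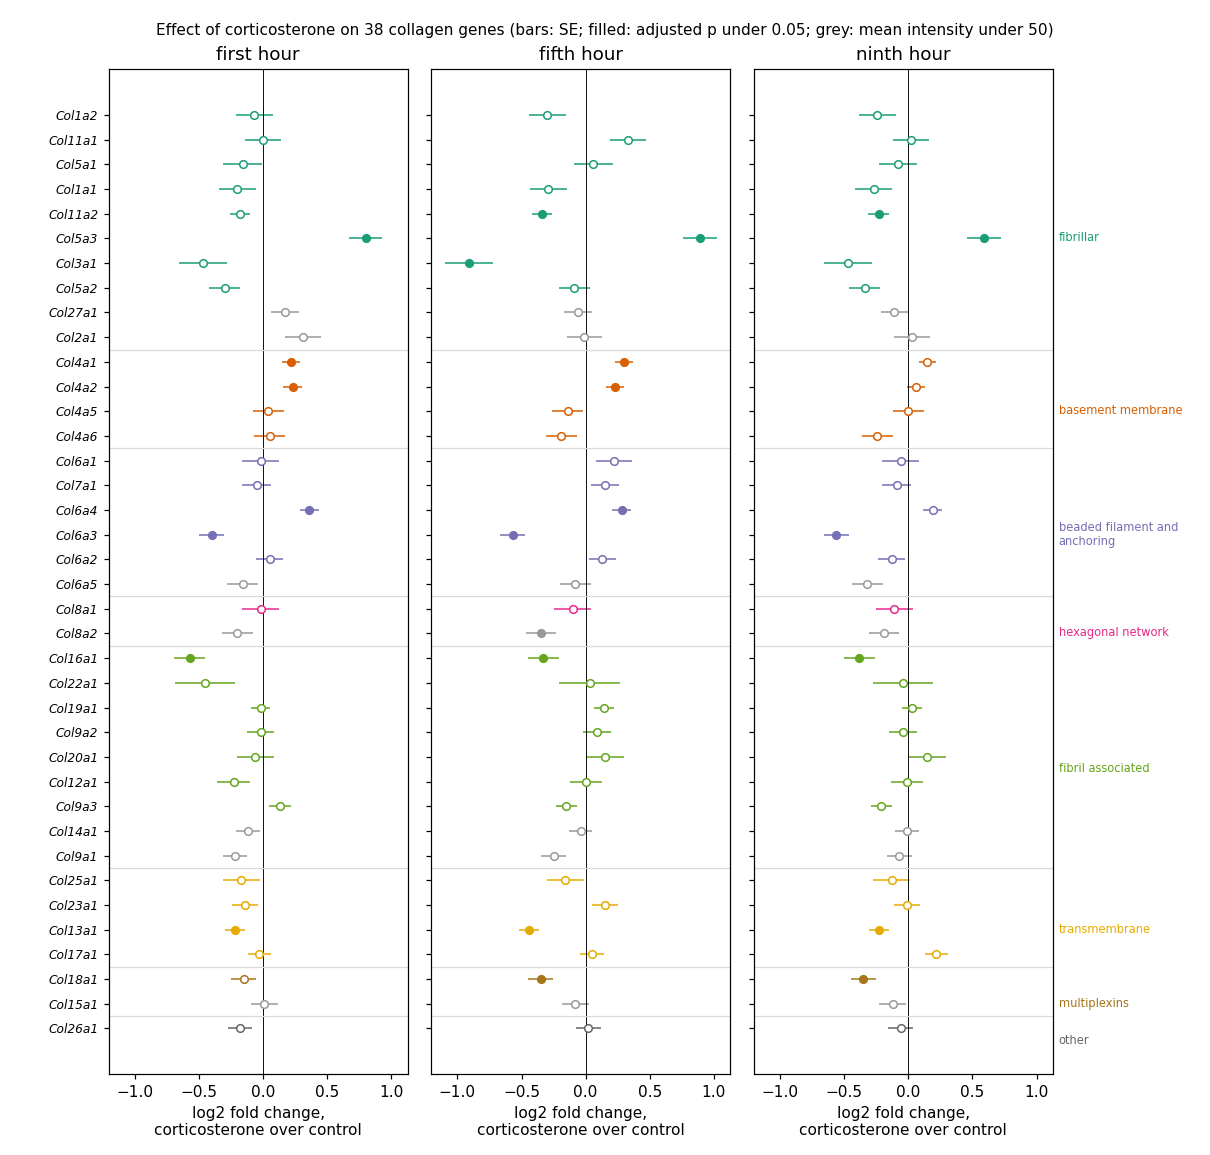
Log2 fold change of corticosterone over control (horizontal axis) for 38 collagen genes at 3 hours, grouped by class, without the 6 genes well above background in none of the channels; bars are SE, filled points have an adjusted p under 0.05, and grey points a mean intensity under 50. *Col5a3* lies farthest to the right at each hour, at 0.80, 0.89 and 0.59, and *Col3a1* farthest to the left in the fifth hour, at -0.91.

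The 11 fibrillar collagens build the fibres of connective tissue. *Col5a3* encodes a chain of type V collagen, which is built into fibrils of type I collagen and limits their width. First-hour *Col5a3* signal was 62.4, 85.1 and 115 (lowest, median and highest of 8 mice) in controls and 103, 160 and 197 in treated mice. For *Col5a3*, the fifth hour gave 38.5, 80.7 and 102 in controls and 95.5, 144 and 207 in treated mice, in the same order of values. Ninth-hour *Col5a3* signal was 58.5, 71 and 77.7 in controls and 78.5, 106 and 132 in treated mice. The groups overlapped at their edges during the first and the fifth hour and did not overlap during the ninth. Such separation was found for 0, 0 and 1 of the 44 collagen genes at the 3 hours and for 1.57, 0.98 and 1.64% of all probes, so that nothing about the family is read from it. Hour by hour, the log2 fold change came to 0.80 (SE 0.130, adjusted p = 5e-06), 0.89 (adjusted p = 1.6e-06) and 0.59 (adjusted p = 0.0021). Treated mice were higher on 7, 8 and 8 of 8 arrays, and the mean log2 ratio was positive within each slide at each hour, from 0.42 to 1.15. Without slide 1, the ninth-hour change was 0.63 and no longer passed the threshold. The dimmer second probe of *Col5a3* (intensity 28.6), seen above background on 1 of 24 arrays for controls and 17 for treated mice, was called at no hour.

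The promoter of *Col5a3* is printed because this gene had the smallest adjusted p of the family during the first and the fifth hour; it and the other promoters shown were chosen after the values were seen. Sequences are from RefSeq (build GRCm38.p6), 250 bases before to 50 after the start of the gene, and 35 of the 44 collagen genes have 1 or more of these windows, 38 in all. Capitals mark copies of the GC box, GGGCGG or its reverse complement CCGCCC, of which the window of *Col5a3* holds 3 (chr9:20815018-20815317, minus strand).
*Col5a3* promoter: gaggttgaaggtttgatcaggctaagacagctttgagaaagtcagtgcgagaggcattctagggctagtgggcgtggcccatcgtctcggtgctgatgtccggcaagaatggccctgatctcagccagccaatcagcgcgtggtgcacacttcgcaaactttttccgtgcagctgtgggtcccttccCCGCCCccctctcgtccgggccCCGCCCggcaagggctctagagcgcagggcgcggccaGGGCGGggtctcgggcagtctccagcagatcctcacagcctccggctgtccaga
This motif, the letters bound by Sp1 factors, is in 35.7% of all 32851 promoters of this length and in 23 of the 38 collagen windows (60.5%). The hexamer AGAACA, searched on both strands, is an arm of glucocorticoid receptor sites; it is in 19% of all promoters and in 2 of the 38 collagen windows (5.26%), those of *Col20a1* and *Col9a1*. TATAAA, also searched on both strands, is in 13.6% of all promoters and 5 collagen windows (13.2%), those of *Col3a1*, *Col10a1*, *Col11a2*, *Col13a1* and *Col17a1*. A match describes letters in this window only, and a window without a match says nothing about a factor.

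*Col3a1* encodes the chain of type III collagen, which accompanies type I in vessel walls and meninges. First-hour *Col3a1* signal was 75.5, 105 and 126 in controls and 54, 60.3 and 115 in treated mice. For *Col3a1*, the fifth hour gave 72.5, 108 and 221 in controls against 42, 65.1 and 81.5 in treated mice. Ninth-hour *Col3a1* signal was 62, 89.9 and 166 in controls and 43.4, 75.6 and 101 in treated mice. The groups overlapped at each hour, and 1 control mouse of the fifth hour, at 221, stood far above the other controls of its hour. The same mouse had the highest mean of the fibroblast markers taken up below among the controls of its hour (0.557 above their mean on the log2 scale) and stood 0.958 and 0.815 above it for *Col1a1* and *Col1a2*; the part of tissue content in its values was not tested. On the log2 scale, the fold changes were -0.47 (SE 0.186, adjusted p = 0.078), -0.91 (adjusted p = 0.00045) and -0.47 (adjusted p = 0.074) in the order of the hours, with treated mice lower on 7, 7 and 6 of 8 arrays. Without slide 3, which held the high control mouse, the fifth-hour value was -0.65 and did not pass the threshold. *Col11a2* encodes a chain of type XI collagen, a minor partner in thin fibrils. First-hour *Col11a2* signal was 117, 140 and 164 in controls and 98.2, 119 and 162 in treated mice. For *Col11a2*, the fifth hour gave 134, 151 and 157 in controls and 94.8, 117 and 140 in treated mice. Ninth-hour *Col11a2* signal was 130, 143 and 158 in controls and 86.2, 122 and 160 in treated mice. Most treated mice lay below most controls, yet the groups overlapped at every hour. The log2 fold change was -0.18 (SE 0.0805, adjusted p = 0.11), -0.34 (adjusted p = 0.0019) and -0.23 (adjusted p = 0.045) at the 3 hours, and treated mice were lower on 6 of 8 arrays at each. The fifth-hour call was lost without slide 3 (-0.27) and the ninth-hour call without slide 1 (-0.15) and without slide 3 (-0.20). With slide as a term and with log ratios per array, the ninth-hour value stayed at -0.23 and was not called either, nor was it without background correction (-0.15), with Aquantile scaling (-0.22) or with the deposited log2 ratios (-0.14). On slide 2 the mean log2 ratio of *Col11a2* during the ninth hour was 0. A dimmer second probe (40.7), seen above background on 12 of 24 arrays for controls and 24 for treated mice, was not called at any hour (-0.10, 0.26 and 0.23).

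The remaining 8 fibrillar genes were called at no hour. *Col1a1* and *Col1a2*, whose products together form type I collagen, had log2 fold changes of -0.20, -0.29 and -0.27 and of -0.07, -0.30 and -0.24. Both had lower medians in treated mice at each hour, such as 165 against 139 for *Col1a1* and 518 against 443 for *Col1a2* in the fifth, with wide overlap. The second probe of *Col1a1* (intensity 144) gave -0.21, -0.33 and -0.27, and its dimmest (92.2) gave 0.04, 0.03 and -0.13. *Col5a2*, another chain of type V, had -0.30 and -0.34 during the first and the ninth hour (adjusted p = 0.075 and 0.059). *Col5a1* ranged from -0.16 to 0.06 and *Col11a1* from 0.00 to 0.33, while *Col2a1*, *Col24a1* and *Col27a1* had intensities under 50.

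**Figure D2:**
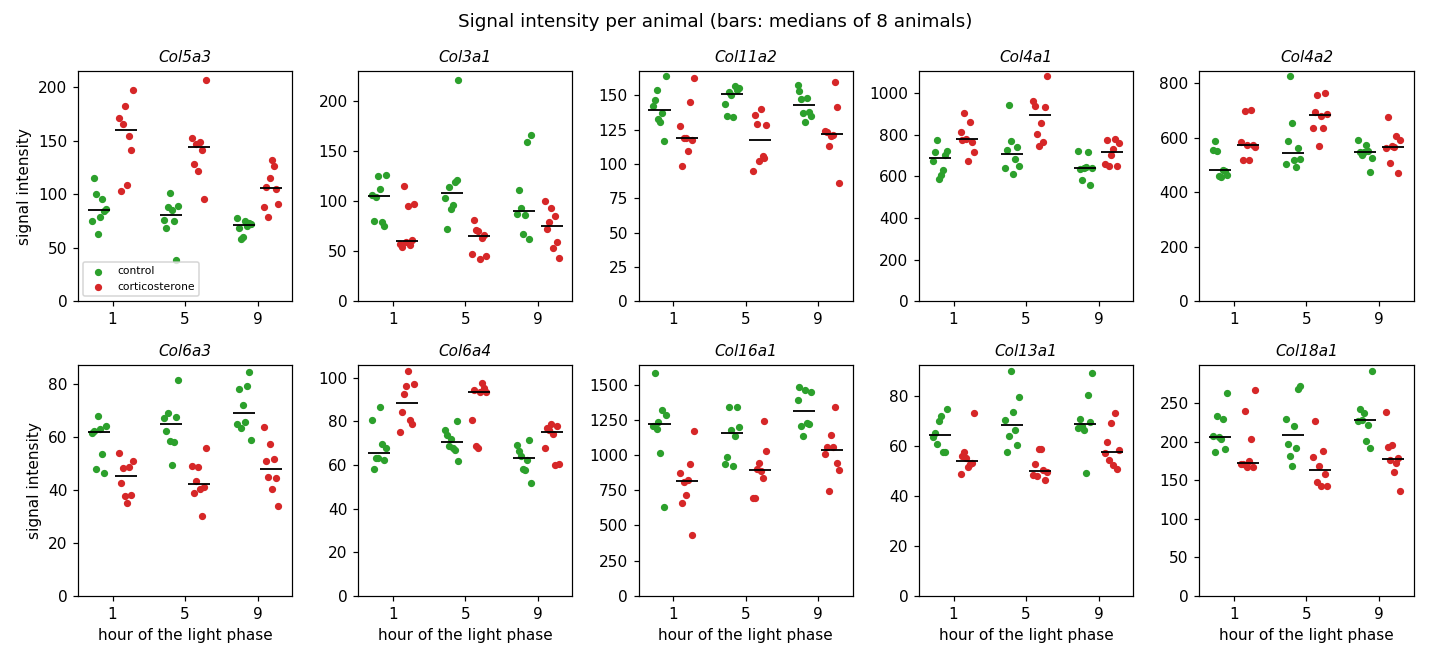
Signal intensity (vertical axis, arbitrary units) of 10 collagen genes in each of 48 mice at the first, the fifth and the ninth hour of the light phase; points are animals, bars medians of 8. Of these 10 genes, *Col5a3* in the ninth hour has groups without overlap, as 1.64% of all probes do, where controls reach 77.7 and treated mice start at 78.5.

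Among the 6 basement membrane collagens, *Col4a1* and *Col4a2* encode the chains of the type IV network found around most blood vessels. First-hour *Col4a1* signal was 589, 688 and 774 in controls and 675, 779 and 907 in treated mice. For *Col4a1*, the fifth hour gave 610, 705 and 944 in controls against 748, 894 and 1080 in treated mice. Ninth-hour *Col4a1* signal was 558, 640 and 721 in controls and 650, 717 and 781 in treated mice. Treated mice had the higher median each time, within overlapping ranges. The log2 fold change was 0.22 (SE 0.0693, adjusted p = 0.017), 0.30 (adjusted p = 0.0011) and 0.15 (adjusted p = 0.12), with treated mice higher on 7, 6 and 7 of 8 arrays. First-hour *Col4a2* signal was 456, 480 and 589 in controls and 517, 573 and 702 in treated mice. For *Col4a2*, the fifth hour gave 491, 543 and 827 in controls against 568, 684 and 766 in treated mice. Ninth-hour *Col4a2* signal was 475, 548 and 590 in controls and 472, 567 and 676 in treated mice. Here too the groups overlapped at each hour, and a control mouse had the highest value of the fifth. *Col4a2* changed by 0.23 (SE 0.0723, adjusted p = 0.018) and 0.23 (adjusted p = 0.015) on the log2 scale during the first and the fifth hour and was not called during the ninth (0.06, adjusted p = 0.63), and treated mice were higher on 7, 6 and 4 of 8 arrays. Neither gene kept all its calls when a slide was left out. *Col4a1* no longer passed the threshold during the first hour without slides 1, 2 or 3 (0.22, 0.19 and 0.24) and during the fifth without slides 1 or 3 (0.24 and 0.23). *Col4a2* no longer passed during the first hour without slides 2 or 3 (0.20 and 0.15) or during the fifth without slides 1 or 3 (0.21 and 0.13), and its fifth-hour value without slide 2 was 0.36. Of the other type IV genes, *Col4a5* (0.04, -0.14 and 0.00) and *Col4a6* (0.05, -0.19 and -0.24) were called at no hour, and *Col4a3* and *Col4a4* were dim.

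*Col4a1* and *Col4a2* lie head to head and are read in opposite directions from a common stretch of chromosome 8. Their promoter windows are printed because both genes were called higher at the same hours. The windows share 78 bases (chr8:11312777-11312854), shown in capitals, each sequence in the direction of its gene (*Col4a1* chr8:11312777-11313076, minus strand; *Col4a2* chr8:11312555-11312854, plus strand).
*Col4a1* promoter: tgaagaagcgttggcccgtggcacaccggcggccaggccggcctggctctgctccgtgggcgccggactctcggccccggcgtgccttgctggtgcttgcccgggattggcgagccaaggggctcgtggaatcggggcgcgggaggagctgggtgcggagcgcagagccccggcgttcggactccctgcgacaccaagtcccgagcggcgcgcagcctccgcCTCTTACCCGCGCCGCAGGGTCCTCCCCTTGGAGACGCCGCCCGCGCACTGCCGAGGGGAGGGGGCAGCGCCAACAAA
*Col4a2* promoter: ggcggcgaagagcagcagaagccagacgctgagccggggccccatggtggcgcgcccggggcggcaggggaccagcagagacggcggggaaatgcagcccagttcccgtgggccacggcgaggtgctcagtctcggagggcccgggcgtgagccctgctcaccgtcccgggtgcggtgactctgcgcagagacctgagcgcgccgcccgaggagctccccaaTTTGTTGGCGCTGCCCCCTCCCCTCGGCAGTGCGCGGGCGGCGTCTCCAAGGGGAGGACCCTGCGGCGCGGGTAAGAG
The window of *Col4a1* holds 1 GC box and that of *Col4a2* holds 3, and neither holds AGAACA or TATAAA on either strand. Across the 24 control mice, as deviations from the mean of their hour, the levels of *Col4a1* and *Col4a2* correlated with r = 0.82 (permutation p = 2e-05, adjusted 0.00038) and Spearman's rho = 0.76 (permutation p = 0.0001, adjusted 0.0021). Without the 2 mice farthest from the median of *Col4a1*, r was 0.70, and within slides 1, 2 and 3 it was 0.78, 0.92 and 0.55. In the 24 treated mice, r was 0.64 (permutation p = 0.00093, adjusted 0.01) and rho 0.66 (permutation p = 0.00086, adjusted 0.013), with 0.65 without the 2 farthest mice and 0.51, 0.77 and 0.64 within slides.

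The 7 beaded filament and anchoring collagens are the chains of type VI collagen, which forms fine filaments next to basement membranes, and *Col7a1*, whose product anchors epithelia. *Col6a3* and *Col6a4* were called in opposite directions. First-hour *Col6a3* signal was 46.4, 61.9 and 67.7 in controls and 35, 45.3 and 53.7 in treated mice. For *Col6a3*, the fifth hour gave 49.5, 64.6 and 81.2 in controls against 30.1, 42.1 and 55.7 in treated mice. Ninth-hour *Col6a3* signal was 58.6, 68.9 and 84.2 in controls and 33.7, 47.8 and 63.8 in treated mice. Each range of treated mice reached into that of the controls, while each treated median lay below the lowest control. The log2 fold change was -0.40 (SE 0.0988, adjusted p = 0.0039), -0.57 (adjusted p = 4.5e-05) and -0.56 (adjusted p = 5.1e-05), and treated mice were lower on 7, 8 and 8 of 8 arrays. Within slides the mean log2 ratio of *Col6a3* was negative at each hour, from -0.25 to -0.86, and only the first-hour call was lost on leaving out a slide (slide 2, -0.30). A second *Col6a3* probe of almost the same intensity (48.7 beside 53.3), seen above background on 19 of 24 arrays for controls and 23 for treated mice, gave 0.15, 0.15 and 0.06 and was not called, so the probes of this gene differ. First-hour *Col6a4* signal was 58.3, 65.7 and 86.4 in controls and 75, 88.4 and 103 in treated mice. For *Col6a4*, the fifth hour gave 61.9, 70.3 and 80.1 in controls against 67.7, 93.4 and 97.5 in treated mice. Ninth-hour *Col6a4* signal was 51.8, 63.2 and 71.2 in controls and 60, 74.9 and 78.8 in treated mice. The treated median was above the highest control at all 3 hours, and the ranges overlapped. Log2 fold changes were 0.36 (SE 0.0752, adjusted p = 6e-04), 0.28 (adjusted p = 0.0068) and 0.19 (adjusted p = 0.11), with treated mice higher on 7, 6 and 6 of 8 arrays. Without slide 3, the fifth-hour value was 0.16 and was not called. *Col6a1*, the brightest probe of the class, was not called (-0.02, 0.22 and -0.06), nor were *Col6a2* and *Col7a1*, between -0.13 and 0.15.

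The 9 fibril associated collagens sit on the surface of fibres and link them to other matrix. *Col16a1*, the brightest probe of the family, encodes such a chain. First-hour *Col16a1* signal was 631, 1220 and 1580 in controls and 432, 815 and 1170 in treated mice. For *Col16a1*, the fifth hour gave 923, 1160 and 1340 in controls against 693, 893 and 1240 in treated mice. Ninth-hour *Col16a1* signal was 1140, 1310 and 1480 in controls and 747, 1030 and 1340 in treated mice. The treated medians of the fifth and the ninth hour lay below the lowest control, and a low control mouse at 631 widened the first-hour range. Fold changes of *Col16a1* on the log2 scale were -0.57 (SE 0.121, adjusted p = 0.00043), -0.33 (adjusted p = 0.038) and -0.38 (adjusted p = 0.021), with treated mice lower on 8, 8 and 6 of 8 arrays. Within slides it ran from -0.17 to -0.86. The fifth-hour call was lost without slides 1 or 2 (-0.29 and -0.34), as was the ninth-hour call (-0.35 and -0.45). A dim second probe (28.7) was seen above background on 2 of 24 arrays for controls and 10 for treated mice. It was not called, with values of the opposite sign (0.15, 0.16 and 0.16). Its promoter is printed because *Col16a1* had the smallest adjusted p among genes that were lower during the first hour; capitals mark 2 GC boxes (chr4:130047590-130047889, plus strand).
*Col16a1* promoter: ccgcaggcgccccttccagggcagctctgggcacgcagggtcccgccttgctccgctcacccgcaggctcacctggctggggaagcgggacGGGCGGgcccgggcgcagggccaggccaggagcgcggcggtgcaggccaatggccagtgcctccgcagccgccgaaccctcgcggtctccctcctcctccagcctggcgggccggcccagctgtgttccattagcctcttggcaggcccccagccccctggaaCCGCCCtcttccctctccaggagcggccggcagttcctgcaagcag
None of the other 8 genes of this class was called at any hour, with *Col9a1* at -0.22 and -0.25 during the first and the fifth hour (adjusted p = 0.076 and 0.053). *Col22a1*, found at tissue junctions, was lower in treated mice on 8 of 8 arrays of the first hour (-0.45, SE 0.234, adjusted p = 0.17), with 0.03 and -0.04 later. Its second probe (64.1) was higher on 7 of those 8 arrays (0.13, adjusted p = 0.42). Control levels of the brightest *Col22a1* probe spread from 344 to 909 in the first hour and from 348 to 1440 in the fifth. *Col19a1*, a neuronal collagen, had -0.02, 0.14 and 0.03.

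*Col13a1* belongs to the 4 transmembrane collagens, which span the cell membrane and help cells adhere, at the nerve-muscle junction for example. First-hour *Col13a1* signal was 57.5, 64.3 and 74.6 in controls and 48.9, 54.1 and 73 in treated mice. For *Col13a1*, the fifth hour gave 57.6, 68.3 and 90.1 in controls against 46.2, 50 and 58.9 in treated mice. Ninth-hour *Col13a1* signal was 49.1, 68.7 and 89.3 in controls and 50.9, 57.7 and 73.1 in treated mice. Overlap was narrow in the fifth hour and wide in the others, and 1 treated mouse of the first hour, at 73, lay far above the rest of its group. Fold changes of *Col13a1* on the log2 scale were -0.22 (SE 0.0781, adjusted p = 0.049), -0.44 (adjusted p = 9.8e-05) and -0.23 (adjusted p = 0.04), with treated mice lower on 8, 8 and 6 of 8 arrays. Only the fifth-hour call held with each slide left out. The first-hour call was lost without slides 1, 2 or 3 (-0.19, -0.17 and -0.30) and the ninth-hour call without slides 1 or 3 (-0.28 and -0.12). Without background correction neither passed (-0.11 and -0.12), nor with the processed signals of the scanner software (-0.17 and -0.22). The first-hour value also did not pass with slide as a term (-0.22), with centring on the median in place of loess (-0.22), with Aquantile scaling (-0.21) or with the deposited log2 ratios (-0.11). A dim second *Col13a1* probe (27.5), seen above background on 3 of 24 arrays for controls and 12 for treated mice, was not called. *Col25a1*, a membrane collagen of neurons, *Col23a1* and *Col17a1* were not called. A second, dimmer *Col25a1* probe (60.6 beside 419) was called lower in the fifth and the ninth hour (-0.55 and -0.42, adjusted p = 5.7e-05 and 0.0027; 7 of 8 arrays each), where the brighter probe gave -0.16 and -0.13.

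*Col18a1* and *Col15a1* are the 2 multiplexins, basement membrane collagens with sugar side chains whose ends can be released; that of *Col18a1* is endostatin. First-hour *Col18a1* signal was 187, 207 and 264 in controls and 168, 173 and 267 in treated mice. For *Col18a1*, the fifth hour gave 169, 209 and 273 in controls against 142, 164 and 227 in treated mice. Ninth-hour *Col18a1* signal was 192, 228 and 292 in controls and 136, 177 and 238 in treated mice. Medians were lower in treated mice throughout, and the ranges overlapped widely. Fold changes of *Col18a1* on the log2 scale were -0.15 (SE 0.0981, adjusted p = 0.29), -0.35 (adjusted p = 0.008) and -0.35 (adjusted p = 0.01), with treated mice lower on 6, 7 and 7 of 8 arrays. These calls depended on the slides: the fifth-hour value did not pass without slides 2 or 3 (-0.38 and -0.22), nor the ninth-hour value without slides 1, 2 or 3 (-0.47, -0.35 and -0.27). *Col15a1* was well above background in 3 of 48 channels and was not called.

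**Figure D3:**
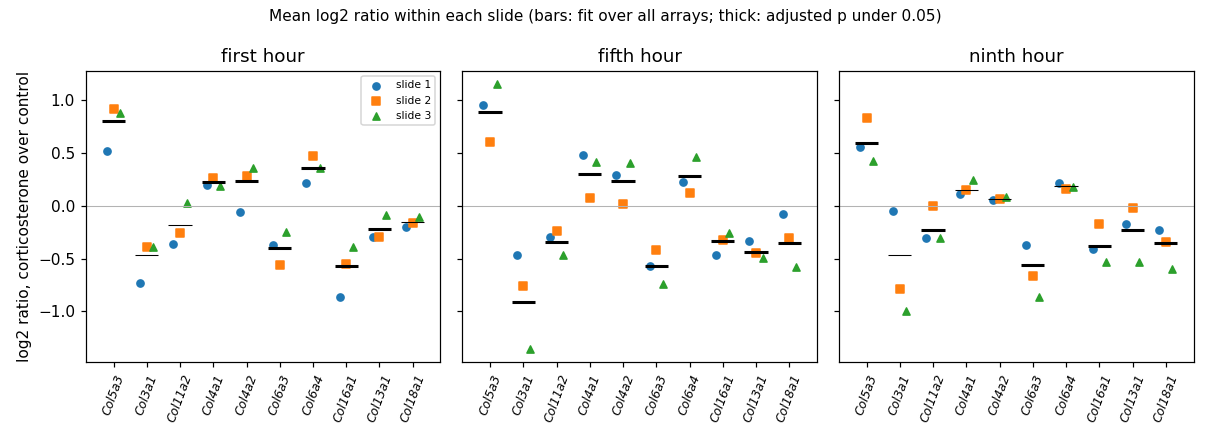
Mean log2 ratio of corticosterone over control (vertical axis) within each of 3 slides for 10 collagen genes at 3 hours; bars are the fit over all arrays, thick where the adjusted p is under 0.05. *Col5a3* is above 0 and *Col6a3* below 0 on each slide at each hour, while *Col3a1* ranges from -0.47 to -1.35 between slides in the fifth hour.

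The hexagonal network collagens (*Col8a1*, *Col8a2* and *Col10a1*) build sheets, in the cornea and growing cartilage for example. *Col8a1* was not called (-0.02, -0.10 and -0.11). *Col8a2* was called lower during the fifth hour (-0.35, SE 0.118, adjusted p = 0.021; 6 of 8 arrays), with values of 24.2, 39.3 and 49.9 in controls and 24.6, 29.5 and 36.9 in treated mice, of which only 2 of 8 and 2 of 8 were well above background. *Col4a4* during the first hour and *Col4a3* during the ninth also passed the adjusted threshold with lower values in treated mice (adjusted p = 0.0086 and 0.021). Both were well above background in 0 of 8 channels of either group, so no fold change is given for them. Of the 2 genes outside these classes, *Col28a1* was dim and *Col26a1* was not called with its brightest probe (-0.18, 0.02 and -0.06). Its probe of intensity 169 gave -0.07, -0.01 and -0.02, and its dimmest (73.2) was called higher at each hour (0.35, 0.28 and 0.31, adjusted p = 0.0018, 0.014 and 0.0092; 7 of 8 arrays each). In all, 10 of the 23 genes with more than 1 probe had probes that differed in their call. No such share over all genes is given, so nothing about the family is read from this count. Among these 10 only *Col25a1* and *Col26a1* had all probes well above background in all channels. Most of the others had a probe that was not above background in many. Dim second probes of *Col4a5*, *Col24a1* and *Col6a4* passed the threshold at 1 hour each, the first of these in channels of which 3 of 24 in controls and 7 of 24 in treated mice were well above background and the others in 0.

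Whether an effect changes with the hour is answered by the difference of effects, in which a constant dye difference cancels. In limma, 0 of 44 collagen genes were called between the first and the ninth hour (0.829% of all probes), with 1 at an unadjusted p under 0.05 (7.17% of all probes). The fifth against the first hour gave 0 called genes (0.0389% of all probes) with 3 at an unadjusted p under 0.05 (4.49%), and between the fifth and the ninth 0 (0.0813%) with 0 (5.2%). The passing of *Col4a1*, *Col4a2*, *Col6a4*, *Col3a1* and others at some hours and not at others is therefore not shown to be a difference between hours. For *Col5a3* the effect changed by -0.21 from the first to the ninth hour (adjusted p = 0.88). In control mice, limma called 0 collagen genes between the first and the ninth hour (0.516% of all probes), with 3 at an unadjusted p under 0.05 (10%).

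Treated mice of the ninth against the first hour gave 2 called collagen genes, both lower, against 3.93% of all probes. Median *Col5a3* signal was 160 in the first and 106 in the ninth hour, for a fitted log2 difference of -0.53 (SE 0.152, adjusted p = 0.014), and that of control mice was -0.31 (adjusted p = 0.48). Median *Col6a4* signal was 88.4 and 74.9, for a fitted log2 difference of -0.31 (SE 0.0881, adjusted p = 0.025). The ranges of both genes overlapped between the hours. Neither call was kept with each slide left out: *Col5a3* gave -0.47 without slide 1 and -0.42 without slide 3, and *Col6a4* gave -0.43, -0.19 and -0.32 without slides 1, 2 and 3, all past the threshold no longer.

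Chains that share a helix, and the chains of types I and III, which share fibres, were set against each other across mice. With the marker lists taken up next, 208 relations were computed, 22 of them between chains, each over 24 mice of 1 treatment as deviations from the mean of the hour. An adjusted permutation p under 0.05 (Pearson) was found for 5 of 11 chain pairs in control and 8 of 11 in treated mice. Unadjusted, 7 (63.6%) and 8 (72.7%) of these pairs had a permutation p under 0.05, beside 13.2 and 18.1% of the 454 other pairs of the same 31 genes, which were computed for this share alone. *Col1a1* and *Col1a2* correlated with r = 0.88 in controls (permutation p = 1e-05, the smallest that 100000 resamples can give, adjusted 0.00026) and rho = 0.74 (permutation p = 0.0001, adjusted 0.0021). Without the 2 mice farthest from the median r was 0.77, and within slides 1, 2 and 3 it was 0.84, 0.89 and 0.92. In treated mice the pair had r = 0.93 and rho = 0.92 (both with permutation p = 1e-05, adjusted 0.00026 and 0.00052), 0.91 without the 2 farthest mice, and 0.96, 0.96 and 0.80 within slides. *Col1a1* and *Col3a1* were as closely tied, with r = 0.88 in both treatments (permutation p = 1e-05, adjusted 0.00026) and rho = 0.79 (permutation p = 9e-05, adjusted 0.0021) and 0.87 (permutation p = 1e-05, adjusted 0.00052). With the 2 farthest mice out r was 0.80 and 0.84, and within slides it ran from 0.71 to 0.90 in controls and from 0.77 to 0.96 in treated mice. Mice high in 1 of these 3 genes thus tended to be high in the others. *Col5a1* and *Col5a3*, chains of type V, had r = 0.56 in controls (permutation p = 0.0024, adjusted 0.025) and rho = 0.64 (permutation p = 0.0012, adjusted 0.014), with 0.53 without the 2 farthest mice and 0.80, 0.27 and 0.62 within slides. Their treated mice gave r = 0.59 (permutation p = 0.006, adjusted 0.047) and rho = 0.57 (permutation p = 0.007, adjusted 0.049), with 0.41 without the 2 farthest mice and 0.68, 0.05 and 0.80 within slides. *Col6a1* and *Col6a3*, which share the type VI helix, gave no call: r was 0.10 in controls (permutation p = 0.64, adjusted 0.84; rho = 0.14, permutation p = 0.53, adjusted 0.78) and 0.18 in treated mice (permutation p = 0.41, adjusted 0.7; rho = 0.19, permutation p = 0.39, adjusted 0.68). Leaving out the 2 farthest mice gave 0.23 and 0.14, and within slides r ran from 0.01 to 0.43 and from -0.23 to 0.55. The 2 levels of a pair come from the same RNA sample and the same channel of 1 array.

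Markers of cells that make collagen were read beside these results. All 9 markers of meningeal fibroblasts were well above background on every array, with *Dcn* the brightest. Their summed signal was 7470, 10500 and 12800 (lowest, median and highest) in controls and 5940, 9400 and 10500 in treated mice during the first hour. For the fifth hour the sum was 6790, 12100 and 14400 against 5310, 9210 and 11800, and for the ninth 8610, 11100 and 13000 against 7160, 9520 and 11700. The sums overlapped, with the treated mouse higher on 2, 2 and 3 of 8 arrays and mean log2 ratios of -0.28 (SD 0.405, n = 8), -0.28 (SD 0.63, n = 8) and -0.15 (SD 0.294, n = 8). *Dcn* makes up most of this sum, with a median of 7590 in first-hour controls, while the median log2 fold change of the 9 markers was -0.09, -0.25 and -0.07, with 3, 0 and 4 of them positive. In limma, 0, 1 and 0 of the 9 markers were called (17.5, 18.1 and 13.9% of all probes), with 4, 4 and 0 at an unadjusted p under 0.05 (31.1, 31.2 and 27.9%), and the 1 was *Slc22a6*, lower during the fifth hour (-0.49, adjusted p = 0.012, 7 of 8 arrays). *Dcn* itself gave -0.36, -0.31 and -0.18 (adjusted p = 0.14, 0.21 and 0.53).

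Across control mice the mean of the 9 fibroblast markers correlated with *Col1a2* at r = 0.79 (permutation p = 0.00019, adjusted 0.0025; rho = 0.64, permutation p = 0.0015, adjusted 0.015). Treated mice gave r = 0.87 (permutation p = 1e-05, adjusted 0.00026; rho = 0.88, permutation p = 1e-05, adjusted 0.00052). Without the 2 farthest mice r was 0.55 and 0.83, and within slides it was 0.64, 0.82 and 0.88 in controls and 0.95, 0.92 and 0.57 in treated mice. The called *Col3a1* behaved alike, with r = 0.77 in controls (permutation p = 0.00013, adjusted 0.0018; rho = 0.63, permutation p = 0.0019, adjusted 0.018) and 0.75 in treated mice (permutation p = 0.00013, adjusted 0.0018; rho = 0.72, permutation p = 0.00027, adjusted 0.0051). Leaving out the 2 farthest mice gave 0.58 and 0.69, and within slides r was 0.33, 0.71 and 0.83 and 0.77, 0.84 and 0.60. The part of fibroblast content in the lower *Col3a1* signal was not tested. The relation of *Col5a3* to the fibroblast markers did not pass the threshold, with r = -0.20 in controls (permutation p = 0.35, adjusted 0.66; rho = -0.07, permutation p = 0.75, adjusted 0.92) and -0.09 in treated mice (permutation p = 0.7, adjusted 0.88; rho = -0.09, permutation p = 0.68, adjusted 0.86). Without the 2 farthest mice its r was -0.45 and -0.36, and within slides it was -0.49, -0.90 and 0.16 and 0.27, -0.41 and -0.34. Of the 31 genes with an intensity of 50 or more, 4 in controls and 3 in treated mice had an adjusted Pearson p under 0.05 with the fibroblast markers. The counts were 5 and 0 with endothelial and 2 and 0 with mural markers. No such share over all genes is given, so nothing about the family is read from these counts. In controls, *Col18a1* had r = 0.74 with mural markers (permutation p = 2e-05, adjusted 0.00038). *Col13a1* and *Col3a1* had r = 0.62 and 0.56 with endothelial markers (permutation p = 0.003 and 0.0052, adjusted 0.027 and 0.042). Also passing with endothelial markers were *Col4a5*, *Col4a6* and *Col11a1* (r = 0.59, 0.60 and -0.59, permutation p = 0.0029, 0.0033 and 0.0027, adjusted 0.027, 0.029 and 0.027). With mural markers *Col7a1* had r = -0.58 (permutation p = 0.0047, adjusted 0.039). Treated mice gave 0.04, 0.06 and 0.43 for *Col18a1*, *Col13a1* and *Col3a1*. They gave 0.11, 0.05 and -0.19 for *Col4a5*, *Col4a6* and *Col11a1* and -0.18 for *Col7a1*, and none passed the threshold.

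**Figure D4:**
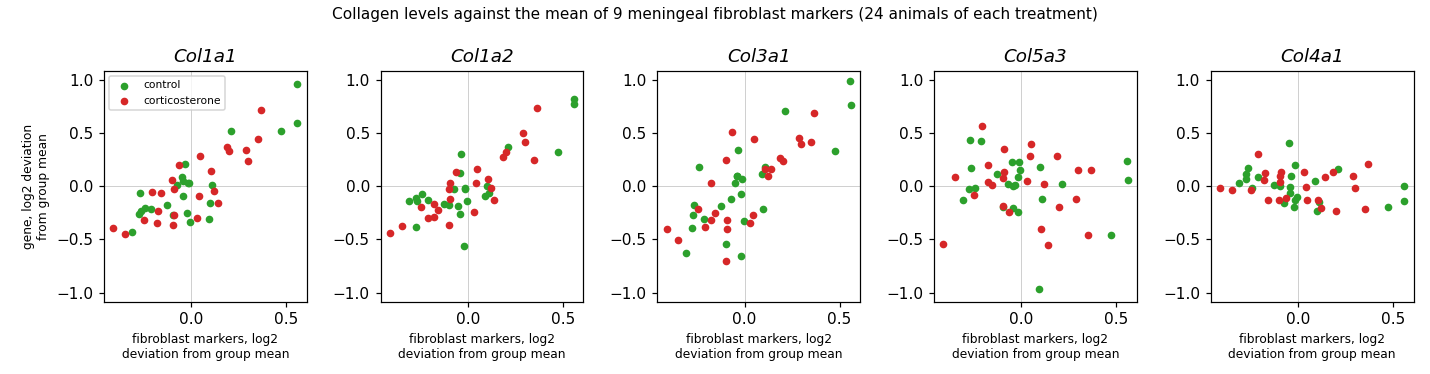
Log2 signal of 5 collagen genes (vertical axis) against the mean log2 signal of 9 meningeal fibroblast markers (horizontal axis), each as the deviation from the mean of its treatment and hour, for 24 control and 24 treated mice. *Col1a1*, *Col1a2* and *Col3a1* rise with the markers, at r = 0.75 to 0.87, while *Col5a3* and *Col4a1* show no slope that passed the test.

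Type IV collagen is made by the cells of blood vessels, so their markers stand beside *Col4a1* and *Col4a2*. All 12 endothelial and 10 mural markers were well above background on every array. Of the endothelial markers, 2 were called higher and 5 lower in the first hour, 2 and 4 in the fifth, and 2 and 1 in the ninth (58.3, 50 and 25%, against 17.5, 18.1 and 13.9% of all probes). In the first hour *Flt1* (-0.61, adjusted p = 1.6e-08; 8 of 8 arrays), *Cldn5* (-0.36, adjusted p = 5.7e-05; 7 of 8) and the brightest, *Ly6c1* (0.29, adjusted p = 0.0017; 7 of 8), had the 3 smallest adjusted p. The summed endothelial signal gave mean log2 ratios of -0.13 (SD 0.13), -0.13 (SD 0.125) and -0.10 (SD 0.0882), n = 8 each, while the median over the 12 markers was -0.18, -0.10 and 0.04, so that sum and median differ in sign in the ninth hour. Mural markers had *Rgs5* as the only called gene at each hour (-0.23, -0.27 and -0.25), *Acta2* as the brightest, and sums at 0.00, -0.05 and 0.00. *Col4a1* and *Col4a2* were called higher in the first and the fifth hour, at which these sums were lower or level, and the part of vessel content in their signal was not tested. Across control mice, their r was -0.17 and -0.35 with endothelial and -0.31 and -0.25 with mural markers. In treated mice it was -0.07 and -0.04, and 0.25 and 0.31, and no adjusted permutation p was under 0.05. The type IV genes *Col4a5* and *Col4a6* did pass with endothelial markers in control mice, as given above, and not in treated mice.

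Markers of choroid plexus, astrocytes, microglia, neurons and blood were read the same way, their counts beside the same 17.5, 18.1 and 13.9% of all probes (31.1, 31.2 and 27.9% at an unadjusted p under 0.05). Sums follow the brightest markers of a list. Of 8 choroid plexus markers, *Folr1* and *Otx2* were not above background on all arrays, *Kl* was the brightest, and limma called 0 at each hour, with 0 at an unadjusted p under 0.05. The sum of these 8 gave mean log2 ratios of -0.06, -0.11 and 0.05. Astrocyte markers (8, brightest *Aldoc*) had 2 called higher and 1 lower in the first hour, 2 and 3 in the fifth and 2 and 2 in the ninth, with sums at 0.16, 0.07 and 0.08 but medians over the markers of 0.04, -0.07 and -0.09. Of these, *Aldh1l1* (0.57), *Aqp4* (-0.76) and *Aldoc* (0.21) were called with the smallest adjusted p of the first hour. Microglia markers (6, brightest *Csf1r*) had 2, 1 and 1 called, all lower and including *P2ry12* (-0.49, -0.62 and -0.37), and *Cx3cr1* (-0.20) in the first hour, with sums at -0.06, -0.07 and -0.07. Neuronal markers had 0, 2 and 1 called, all higher, with 0, 2 and 2 at an unadjusted p under 0.05 and sums at 0.03, 0.07 and 0.07. Of 3 blood markers limma called 0 at each hour, with 0, 2 and 0 at an unadjusted p under 0.05, *Hba-a1* the brightest, sums at 0.13, 0.28 and 0.03 and medians of 0.16, 0.29 and -0.09. The part of these cell types in the collagen values was not tested.

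Collagen chains are modified, folded and carried out of the cell by a common machinery, and 20 of its 21 listed genes had an intensity of 50 or more. During the first hour 4 were called higher and 2 lower, during the fifth 4 and 1, and during the ninth 3 and 2 (28.6, 23.8 and 23.8%, against 17.5, 18.1 and 13.9% of all probes). *P4ha2*, a subunit of the enzyme that hydroxylates proline, was higher in the first and the fifth hour (0.35 and 0.22, SE 0.0634, adjusted p = 4.9e-05 and 0.01; 7 and 8 of 8 arrays). Its effect declined to -0.03 in the ninth hour, and the difference from the first was itself called (-0.38, SE 0.0896, adjusted p = 0.013). *Plod3*, which hydroxylates lysine and adds sugars, was higher at each hour (0.29, 0.22 and 0.21, adjusted p = 5.7e-05, 0.0019 and 0.0037; 8, 7 and 8 of 8 arrays). *Serpinh1*, the chaperone that binds the collagen helix, was lower on 8 of 8 arrays of the first hour (-0.42, SE 0.1, adjusted p = 0.0016) and not called later (-0.21 and -0.09). *Mia3*, the brightest gene of this list, loads procollagen into carriers and was higher at each hour (0.18, 0.19 and 0.17).

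After secretion, ends are cut off and chains are crosslinked, for which 14 genes were listed. They had 2 called higher and 1 lower in the first hour, 1 and 1 in the fifth and 1 and 2 in the ninth (21.4, 14.3 and 21.4%, against 17.5, 18.1 and 13.9% of all probes). *Adamts14*, which trims the start of procollagen, was higher in the first and the fifth hour (0.47 and 0.36, SE 0.121, adjusted p = 0.0041 and 0.024; 8 and 7 of 8 arrays). *Pcolce*, an enhancer of cutting at the other end, was lower at each hour (-0.33, -0.43 and -0.32, SE 0.112, adjusted p = 0.032, 0.0044 and 0.041; 7, 6 and 7 of 8 arrays). The crosslinking enzyme *Loxl3* was called higher in the first hour (0.29, adjusted p = 0.017; 7 of 8 arrays) at an intensity of 39.2. *Pxdn*, which crosslinks type IV collagen and was the brightest, was not called (0.14, 0.06 and -0.01). Among 11 collagen receptors, 1 was called higher and 2 lower in the first hour, 1 and 5 in the fifth, and 0 and 3 in the ninth (27.3, 54.5 and 27.3%, against 17.5, 18.1 and 13.9% of all probes). *Itga1*, a subunit of an integrin that binds type IV collagen, was lower in the first and the fifth hour (-0.22 and -0.41, SE 0.0724, adjusted p = 0.024 and 3.2e-05; 7 and 8 of 8 arrays). *Itga2* was called lower at the same hours (adjusted p = 0.00016 and 4.2e-05, 8 of 8 arrays each). Its intensity was only 23.5, so no fold change is given for it. *Adgrg1*, a receptor for type III collagen and the brightest, was higher (0.20 and 0.17, adjusted p = 0.018 and 0.036; 6 of 8 arrays each).

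Of 17 other basement membrane proteins, 2 were called higher and 3 lower in the first hour, 2 and 1 in the fifth, and 2 and 1 in the ninth (29.4, 17.6 and 17.6%, beside 17.5, 18.1 and 13.9% of all probes). *Lamb1*, a laminin chain, was higher on 8 of 8 arrays at each hour (0.28, 0.18 and 0.22, SE 0.0466). *Nid2*, which links laminin to type IV collagen, was lower in the first hour (-0.45, SE 0.0915, adjusted p = 0.00074; 8 of 8 arrays) and not called later, and the test of its ninth-hour against its first-hour effect was called (0.51, SE 0.129, adjusted p = 0.049). *Lamb3* was lower in the first and the fifth hour (-0.38 and -0.58). *Sparc*, which binds collagen and was the brightest, was higher in the fifth and the ninth hour (0.27 and 0.23). Of the TGF beta pathway, a driver of collagen synthesis, the ligand *Tgfb2*, the brightest of its list, was lower in the first and the fifth hour (-0.22 and -0.17, adjusted p = 0.0013 and 0.014; 7 of 8 arrays each). *Smad3*, a carrier of its signal, was higher at each hour (0.16, 0.13 and 0.20). Counts for this list are not given, so nothing about the pathway is read from these genes.

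The timing of the collagen changes can be read beside 5 known corticosteroid response genes. All 5 were called higher in the first hour, 3 higher in the fifth and 3 lower in the ninth, against 17.5, 18.1 and 13.9% of all probes. *Cdkn1a* gave 2.06, 1.1 and 0.17, *Sgk1* gave 0.71, 0.00 and -0.12, *Tsc22d3* gave 0.93, 0.20 and -0.58, and *Zbtb16*, the brightest, gave 0.25, 0.26 and -0.28. For each of these 4, the ninth-hour effect differed from that of the first (adjusted p = 1.2e-06, 7.1e-08, 1.6e-10 and 0.00051). They were listed as known responders, and in limma such a difference was called for 0.829% of all probes and for 0 of the 44 collagen genes, with 7.17% of all probes and 1 collagen gene at an unadjusted p under 0.05, so nothing about collagen genes is read from this contrast.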

How the data were processed

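The authors deposited scanner files, with the unnormalized intensity of spots and of the background around them for Cy3 and Cy5, and a table of log2 ratios. That deposited table holds log2 Cy5 over Cy3 (column medians 0.00239 to 0.00889) and lay closest to values computed here with normexp, an offset of 50 and loess alone.

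Median intensities were corrected by normexp (offset 50 for p values, 0 for levels, fold changes and SE), loess within and quantile normalization between arrays, without 3671 control spots or spots marked as outliers (80 to 276 per array). The limma 3.58.1 separate channel test (R 4.3.3, statmod 1.5.0; intraspot correlation 0.286) fitted 6 groups on 24 arrays, with p values adjusted over 56605 probes by Benjamini and Hochberg; limma p values are two-sided. The separate channel fit was tested on simulated normalized channels without dye or slide effects, and the steps before it were not. Permutation tests within hours (two-sided) and figures used Python 3.11.15. Alternatives changed offsets, background, normalization, signals, filter, test, probe and slides. Members and lists were chosen with earlier results of these data known. Full statistics are given for genes called in any comparison at an intensity of 50 or more, at most 10 per comparison; other lists are given by counts, the called genes with the 3 smallest adjusted p of the first hour, and the brightest. For the TGF beta list, counts and 1 of these genes are not given, and 1 further marker list is not given. Other genes and probes named were chosen after their values were seen. *Col21a1* and *Hbb-bs* have no probe. With 8 arrays per hour, their number limits precision.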

Additional observations from a re-analysis of the deposited data

Results flagged for a closer look

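In 2 of 60 groups of 8 mice tested among the genes given in full, 1 mouse stood apart from the others by its distance relative to the range of the group; chance alone marks about 1 in 20 groups. *Col13a1* in corticosterone-treated mice of the first hour was 73 in replicate 8, while the other 7 lay between 48.9 and 57.4. *Col3a1* in control mice of the fifth hour was 221 in replicate 8, while the other 7 lay between 72.5 and 121. The second of these mice was also the highest of its group in fibroblast markers, *Col1a1* and *Col1a2*, and the cause was not tested. Both mice were on slide 3, and the values without that slide stand beside each gene.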

How the results depend on the processing

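The number of collagen genes called was 8, 11, 7 and 2 for the first, the fifth and the ninth hour and for treated mice of the ninth against the first hour. Without slide 1 it was 2 for the ninth hour and 0 for treated mice. Without slide 2 it was 4, 4 and 1 for the first hour, the ninth hour and treated mice. Without slide 3 it was 4, 3 and 0 for the fifth hour, the ninth hour and treated mice. Within slide 1 alone, with fewer arrays, the 4 counts were 1, 1, 0 and 0, within slide 2 alone 2, 0, 0 and 0, and within slide 3 alone 2, 5, 0 and 0. The ninth hour rose to 11 with the processed signals of the scanner software and to 11 with any probe of a gene. No share of all probes is given for these alternatives, so nothing about the family is read from their counts. The comparisons with 0 called genes moved under no alternative. For 25 results of named genes, 273 of 321 values outside single slides kept direction and call, and 48 kept the direction alone; the first hour of *Col13a1* lost its call in 9 of 13 alternatives and the ninth hour of *Col11a2* in 7, both of them with slide as a term, without background correction and with the deposited log2 ratios among others. With single slides included, 2 of 396 values did not keep their direction. *Col4a2* in the first hour within slide 1 gave -0.06. *Col11a2* in the ninth within slide 2 was 0 after rounding, so no opposite effect is read from it. The cause was not tested. The offset of 50 for fold changes leaves the p values as they are, so it can move sizes and no call. Sizes moved by over 1.5 times also for calls lost in some alternatives: *Col6a3* of the first hour ran from -0.66 to -0.19, *Col3a1* of the fifth from -1.09 to -0.55, *Col5a3* of the ninth from 0.36 to 0.72, *Col6a4* of the fifth from 0.16 to 0.37, *Col18a1* of the fifth from -0.44 to -0.22, *Col11a2* from -0.40 to -0.22 in the fifth and from -0.31 to -0.14 in the ninth, *Col4a2* from 0.15 to 0.32 in the first and from 0.13 to 0.36 in the fifth, *Col13a1* from -0.30 to -0.11 in the first and from -0.29 to -0.12 in the ninth, and *Col6a4* of treated mice between hours from -0.43 to -0.19. Calls kept in all 13 moved in size: *Col5a3* ran from 0.53 to 0.96 in the first hour and from 0.57 to 1.09 in the fifth, *Col6a4* of the first from 0.21 to 0.51, *Col16a1* of the first from -0.67 to -0.47, *Col13a1* of the fifth from -0.51 to -0.23, and *Col6a3* from -0.78 to -0.28 in the fifth and from -0.79 to -0.29 in the ninth. Log ratios per array and the deposited log2 ratios give no value for treated or control mice alone. Signal over background limits 13 genes under an intensity of 50, where *Col8a2* of the fifth hour was measured well above background in 2 of 8 and 2 of 8 channels and *Col4a3* and *Col4a4* in none.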
